A study of Elopichthys bambusa with 12 samples.

Results

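A group of 155 assembled transcripts was low in the livers of yellowcheek carp fed for 28 days and higher in all other livers of the study. They were chosen from 42353 transcript features by their measured levels, given as CPM (estimated counts scaled to a common column total). The mean level had to be 10 CPM or more in fish fasted for 28 days, fasted for 8 days and fed for 8 days. The fed 28-day mean had to be at most 0.5 times each of these 3 means, and each fed 28-day library had to lie below all 9 other libraries. The 155 transcripts made up 3.98% of the 3899 features that met the level condition. Because the low fed 28-day level is what chose them, it is described here and not tested.

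Yellowcheek carp (Elopichthys bambusa) is a predatory freshwater cyprinid. Liver RNA was sequenced from 4 groups of 3 libraries each: fish deprived of food for 28 days, fish deprived of food for 8 days, and 2 control groups fed a commercial diet every morning and evening for 28 or 8 days. Fed and fasted fish are not set apart by any allele or further agent in the labels, which give neither strain nor age and do not say whether a library came from 1 fish or from a pool. The p-values therefore measure the spread between these libraries, which may be technical in part.

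In a fed fish the liver stores glycogen and lipid, makes fatty acids and secretes most plasma proteins. During a fast it turns to releasing glucose and to burning fat and amino acids, and many liver transcripts change with this switch. The identifiers come from a de novo assembly. No gene names stand beside them in the files used here, and the transcripts are described by identifier, length and level. For the same reason liver markers and markers of other cell types could not be looked up. In bulk liver, fewer cells of a type and less RNA per cell cannot be told apart.

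The 12 libraries held 16785827 to 19901335 estimated counts each. Principal components were taken from log2 CPM of the 32212 features tested, scaled by edgeR's TMM method. On the first, the fed 8-day group was set off from all others. On the second (18.7% of the variance) the fed 28-day replicates 1, 2 and 3 scored -111.6, -156.9 and -133.8, and the 9 remaining libraries 1.38 to 98.2. Among the fasted fish, replicate 2 of the 8-day group and replicates 2 and 3 of the 28-day group lay apart from the other 3 libraries on the third component. No 2 libraries of a group agreed within sampling noise, so all 12 were kept as separate samples. The fed 28-day libraries also had the lowest scaling factors by edgeR's TMM method, 0.835 to 0.917, against 0.937 to 1.22 in the 9 other libraries.

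Summed over all 155 transcripts, the levels were 8519, 8583 and 7691 CPM in the fasted 28-day livers and 8038, 9408 and 6605 CPM in the fasted 8-day livers. They were 2576, 2041 and 2485 CPM in the fed 28-day livers and 8699, 8626 and 8830.5 CPM in the fed 8-day livers. These sums came to 0.826% ± 0.0497, 0.802% ± 0.14, 0.237% ± 0.0286 and 0.872% ± 0.0104 of all counts, in the same order of groups (SD, n = 3 each). The fed 28-day livers stood low, as the choice requires, and the sums of both fasted groups overlapped. Every fed 8-day sum lay above every fasted 28-day sum and within the range of the fasted 8-day sums. Fed 8-day livers varied least among themselves, and fasted 8-day livers varied most. The most abundant transcript held a large part of the sum, and without it the group means were 6245 ± 357, 6003 ± 1050, 1804 ± 256 and 7438 ± 17.2 CPM in the same order (SD, n = 3 each).

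**Figure D1:**
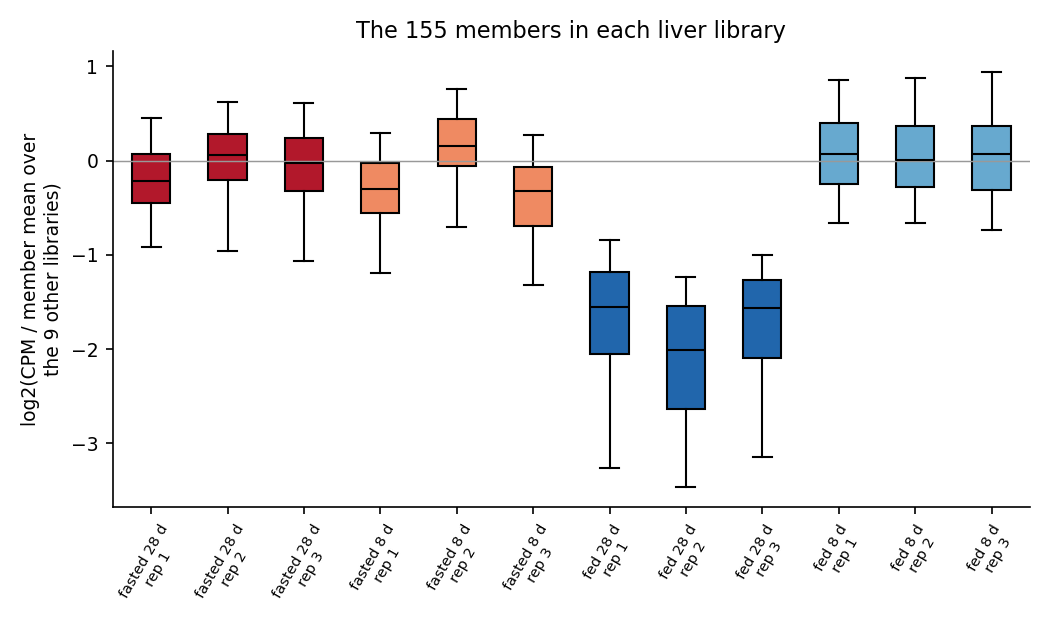
Level of the 155 transcripts in each liver library, as log2 of the CPM over the transcript's own mean in the 9 libraries outside the fed 28-day group (boxes: quartiles and median; whiskers: 5th to 95th percentile). Medians lie at -1.55, -2.00 and -1.56 in the fed 28-day libraries and between -0.32 and 0.16 in the others.

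The fed 28-day libraries did not stand equally low. The median of the transcripts was 8.01, 5.60 and 7.27 CPM in fed 28-day replicates 1, 2 and 3. Replicate 2 was the lowest of the 3 for 99 transcripts, against 27 for replicate 1 and 29 for replicate 3. The median was 19.7, 22.6 and 22.0 CPM in the fasted 28-day livers, 16.7, 24.7 and 17.4 CPM in the fasted 8-day livers, and 23.6, 21.6 and 22.8 CPM in the fed 8-day livers. By column totals, fasted 8-day replicates 1 and 3 therefore came nearest to the fed 28-day level. They were the lowest of the 9 other libraries for 34 and 37 transcripts, which is 21.9% and 23.9%, against 10.7% and 16.6% of the features that met the level condition. Fasted 8-day replicate 2, one of the libraries apart on the third component, was the highest of the 9 for 35 transcripts (22.6%, against 15.5% of those features).

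Most of the transcripts were of moderate abundance. Their mean over the 9 other libraries was 10 to 20 CPM in 67 cases, 20 to 50 CPM in 58, 50 to 100 CPM in 16 and 100 CPM or more in 14. Every one of them had counts in all 12 libraries, with a median of 122 estimated counts and a lowest value of 5.95 in a fed 28-day library. By estimated counts none was absent from the fed 28-day livers, though the lowest counts may include reads shared with near-identical features. The coefficient of variation within the fed 28-day group had a median of 22.1%, against 12.6% for the features that met the level condition. It was higher for the 155 in the other groups too. The medians were 20.9% against 17.9% in fasted 28-day, 26.9% against 19.9% in fasted 8-day and 11.4% against 9.21% in fed 8-day livers. The features that met the level condition had a higher median level of 32.6 CPM over the 9 other libraries (22.2 CPM for the 155).

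How far the fed 28-day level lay below the others varied widely. The lowest of the 3 other group means was 2.0017 to 12.06 times the fed 28-day mean, with a median of 2.45. It was at least 3 times as high for 42 transcripts, at least 4 times for 18 and at least 5 times for 11. The lowest of these 3 means was that of fasted 28-day fish for 35 transcripts, of fasted 8-day fish for 65 and of fed 8-day fish for 55. Between single libraries the gap was narrower. The lowest of the 9 other libraries was 1.58 times the highest fed 28-day library in the median, at least 2 times for 27 transcripts and under 1.1 times for 5.

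**Figure D2:**
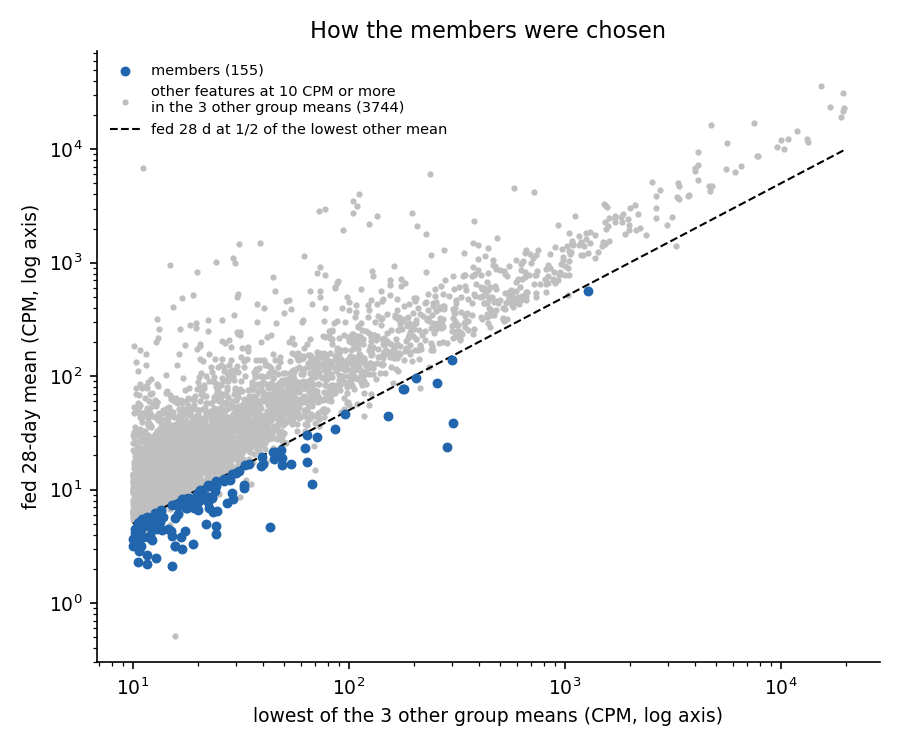
Fed 28-day mean against the lowest of the 3 other group means, both in CPM on log axes, for the 3899 features at 10 CPM or more in those 3 groups. The 155 chosen transcripts (blue) lie on or below the dashed line at 0.5 times, and grey points below it failed the order condition.

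The limits of the choice passed through closely spaced values. At the ratio limit, a chosen transcript had a fed 28-day mean of 5.54 CPM and a lowest other mean of 11.09 CPM, a ratio of 2.0017, and the nearest feature left out had 519.9 and 1038 CPM, a ratio of 1.997. At the level limit, the lowest other mean was 10.05 CPM for the last transcript taken in and 9.98 CPM for the first left out. At the order limit, the last taken in had 5.39 CPM in its highest fed 28-day library and 5.42 CPM in the lowest other library. The first left out had 10.64 and 10.56 CPM. The ratio condition alone kept out 466 features, the level condition alone 1122 and the order condition alone 36.

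Membership depended on how the libraries were scaled. With TMM-scaled CPM the same rule chose 66 features, all among the 155, and with RLE scaling it chose 68, again all among them. On the TMM scale the ratios of the 155 were 1.58 to 9.70, with a median of 2.02. That each lay lower in the fed 28-day group on this scale follows from the choice. The scaling factors differed too little between libraries to undo the ratio that the rule demands. The median feature meeting the level condition was lower in fed 28-day livers by column totals, with a log2 fold of -0.21 against fasted 28-day livers and -0.30 against fed 8-day livers. On the TMM scale these values were 0.13 and -0.04. For the 155 transcripts the medians were -1.60 against fasted 28-day, -1.51 against fasted 8-day and -1.63 against fed 8-day livers by column totals, and -1.26, -1.25 and -1.38 on the TMM scale.

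The deepest gap belonged to TRINITY_DN14431_c0_g1_i3_4, a feature of 1032 nucleotides and the second most abundant of the group. It had 415.9, 210.9 and 228.6 CPM in fasted 28-day livers, 405.8, 263.3 and 490.3 CPM in fasted 8-day livers, 32.3, 18.7 and 20.025 CPM in fed 28-day livers, and 523.3, 545.2 and 611.5 CPM in fed 8-day livers. The fed 8-day libraries were the highest, the 2 fasted groups overlapped below them, and the fed 28-day libraries lay far below all. Its fasted 28-day mean was 12.06 times the fed 28-day mean, and its fed 28-day mean was 0.0422 times the fed 8-day mean. Per length, it stood at 269.6 ± 100.3, 364.6 ± 99.3, 22.8 ± 7.58 and 561.2 ± 38.4 FPKM (fragments per kilobase of feature, scaled by library size) in fasted 28-day, fasted 8-day, fed 28-day and fed 8-day livers (SD, n = 3 each). On the TMM scale its ratio was 9.70.

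TRINITY_DN14708_c1_g1_i13_4, of 2803 nucleotides, had the next deepest gap. It had 32.6, 72.6 and 43.6 CPM in fasted 28-day livers, 30.8, 58.8 and 39.3 CPM in fasted 8-day livers, 9.50, 2.89 and 1.77 CPM in fed 28-day livers, and 81.0, 88.3 and 93.1 CPM in fed 8-day livers. Here too the fed 8-day libraries lay highest and the fasted groups overlapped. Replicate 2 was the highest library of both fasted groups, and the fed 28-day libraries differed more among themselves than those of the other groups did relative to their means. The lowest other mean was 9.11 times the fed 28-day mean, and 7.42 times on the TMM scale.

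The most abundant transcript of the group, of 886 nucleotides, lay near the ratio limit. It had 2624, 1974 and 1459.6 CPM in fasted 28-day livers, 2448, 2212 and 1382.5 CPM in fasted 8-day livers, 603.3, 530.9 and 554.8 CPM in fed 28-day livers, and 1242, 1203 and 1395.5 CPM in fed 8-day livers. The fasted 8-day and fed 8-day libraries overlapped, because fasted 8-day replicate 3 lay below fed 8-day replicate 3. Per length, its means were 2229 ± 597, 2234 ± 656, 630.3 ± 49.3 and 1494.5 ± 97.9 FPKM in fasted 28-day, fasted 8-day, fed 28-day and fed 8-day livers (SD, n = 3 each). Its ratio of 2.27 by column totals was 1.90 on the TMM scale, where it did not meet the rule.

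**Figure D3:**
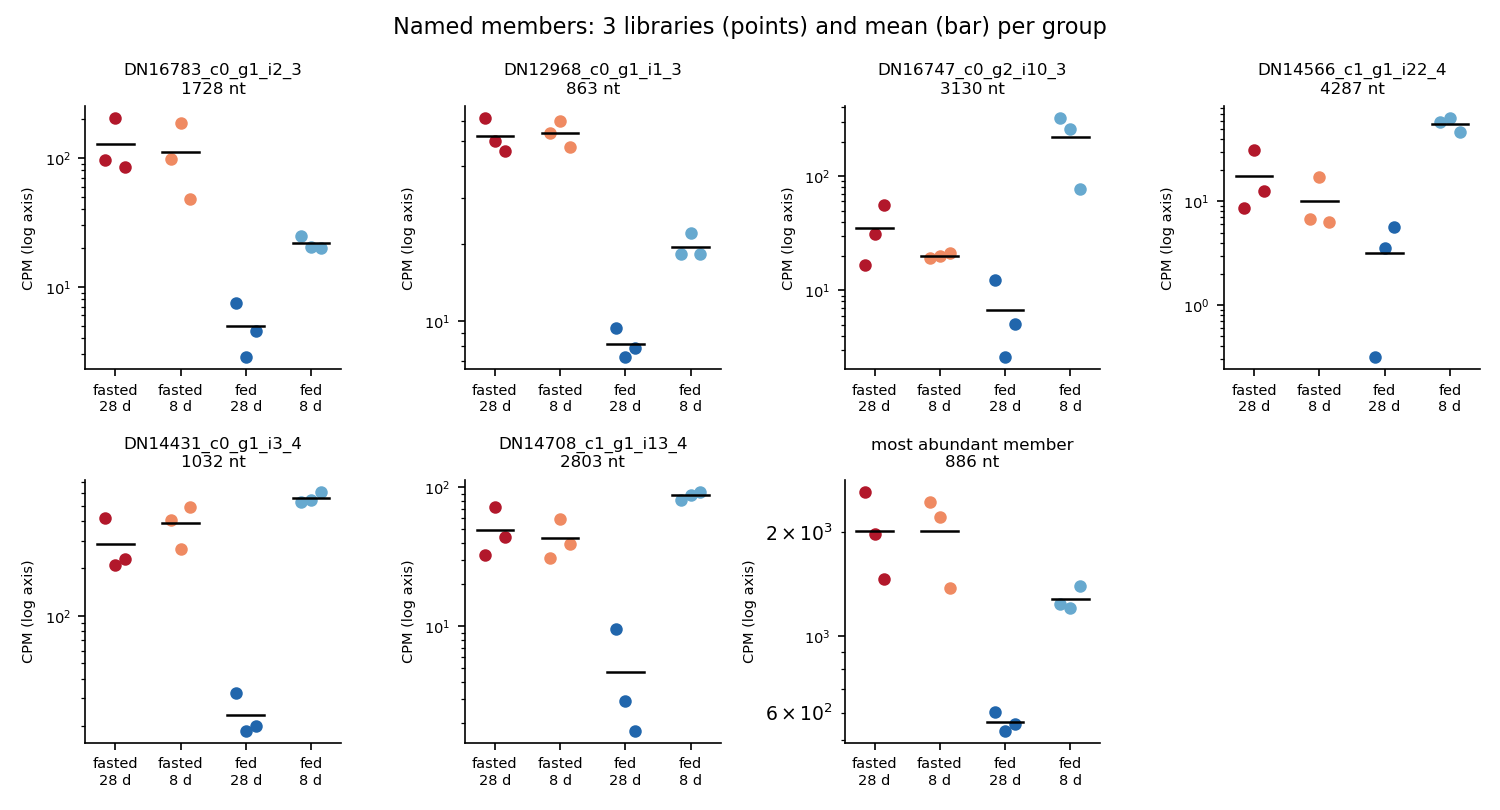
CPM on a log axis in every library for the named transcripts and the most abundant one, with points for libraries and bars for group means; groups run from fasted 28 days to fed 8 days. Each fed 28-day library lies below all others, and the fed 8-day libraries lie above the fasted ones, below them or among them.

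The rule did not set fasted against fed fish at 8 days, so this contrast could be tested. Both 8-day groups did enter the rule, since each had to reach 10 CPM and lie above the fed 28-day group. A transcript with a very low level in either 8-day group was therefore less readily chosen. The counts and fold changes at 8 days thus depend in part on the choice. The test asked whether transcripts that were higher in fasted than in fed livers at 28 days by choice also differed after a short fast. Of the 155 transcripts, all of which passed the filter on low counts, 12 were higher and 29 lower in fasted 8-day than in fed 8-day livers by edgeR's quasi-likelihood test at an adjusted p under 0.05, and 114 did not pass. The share called, 26.5%, was close to the background: 25.3% of the 32212 features tested were called, 13.3% higher and 12.1% lower. Among the features that met the level condition it was 46.8%, with 21.4% higher and 25.3% lower, against 7.74% higher and 18.7% lower for the 155. The difference between the 155 and those features was not tested. Fasted and fed 8-day libraries did not overlap for 18 transcripts that were higher and 45 that were lower in fasted fish, which is 11.6% and 29.0%, against 21.4% and 20.9% of all features tested. This count was not made for the features that met the level condition, so these shares are not matched for level.

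The fold changes at 8 days were mostly small. The median log2 fold change, fasted over fed, was -0.09 for the 155 transcripts, with quartiles at -0.59 and 0.28. It was 0.16 for all features tested and -0.07 for those that met the level condition. An absolute log2 fold change of 1 or more was fitted for 24 transcripts (15.5%), against 45.6% of all features tested and 30.8% of those that met the level condition. The rising count was 6 without fasted 8-day replicate 1 and 6 without any one of the 3 fed 8-day replicates. With the same libraries left out, 9.27% to 9.67% of all features tested were called higher, against 13.3% with all 12. Without the 3 fasted libraries apart on the third component, the median log2 fold change was -0.187 for the 155. It was 0.028 for all features tested in that fit.

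**Figure D4:**
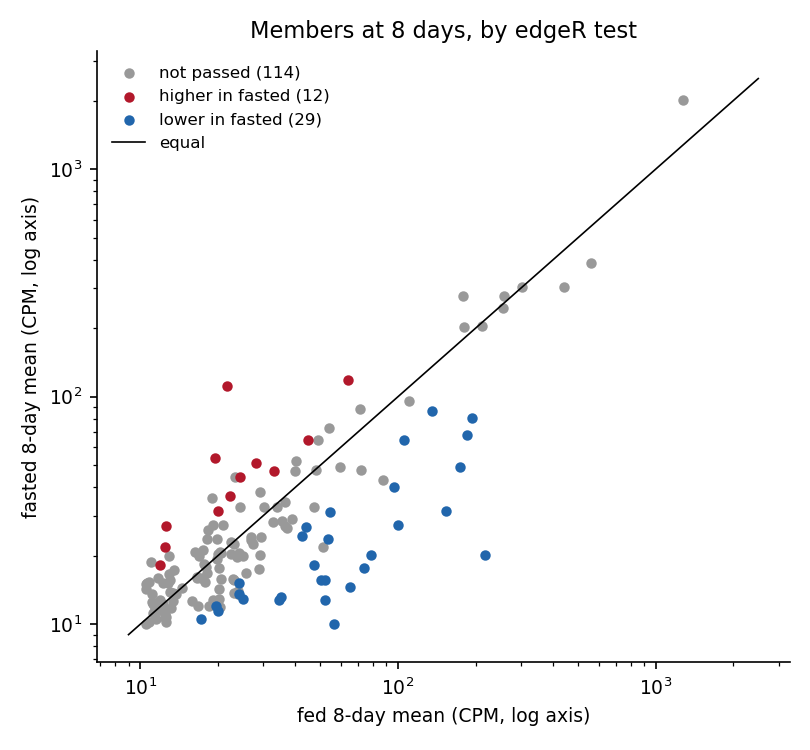
Fasted 8-day mean against fed 8-day mean for the 155 transcripts, in CPM on log axes, coloured by edgeR's test. The 12 that passed as higher in fasted livers lie above the line of equal levels, the 29 that passed as lower lie below it, and 114 did not pass.

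The 29 transcripts that fell at 8 days were, in the median, highest in fed 8-day fish. Their median level was 19.4, 22.0 and 19.7 CPM in fasted 28-day livers, 15.6, 20.1 and 15.5 CPM in fasted 8-day livers, 7.32, 5.97 and 7.17 CPM in fed 28-day livers, and 54.5, 58.0 and 53.9 CPM in fed 8-day livers. The fasted groups thus lay between the fed groups of the 2 days. Their log2 fold changes ran from -3.40 to -0.65 with a median of -1.36. The 12 that rose at 8 days had median levels of 43.6, 48.7 and 45.3 CPM in fasted 28-day livers, 38.8, 53.1 and 36.0 CPM in fasted 8-day livers, 9.60, 6.99 and 7.61 CPM in fed 28-day livers, and 20.8, 22.0 and 22.0 CPM in fed 8-day livers. Both fed groups lay below both fasted groups in these medians, and the log2 fold changes ran from 0.53 to 2.31. The order of the 8-day groups in both classes follows from the test that formed them. The place of the fed 28-day group below the other groups follows from the rule.

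TRINITY_DN16783_c0_g1_i2_3, of 1728 nucleotides, rose most at 8 days. It had 96.8, 203.5 and 85.6 CPM in fasted 28-day livers, 98.5, 188.2 and 48.4 CPM in fasted 8-day livers, 7.45, 2.84 and 4.53 CPM in fed 28-day livers, and 24.8, 20.4 and 20.1 CPM in fed 8-day livers. None of the 6 fasted libraries reached down to a fed one, and replicate 2 was the highest in both fasted groups. At 8 days the log2 fold change was 2.31 ± 0.45 (SE, edgeR adjusted p = 0.0033, higher in 3 of 3 libraries). The transcripts named for their change at 8 days were picked among those that passed without overlap of the 8-day libraries. The 3 of 3 given for each of them therefore follows from that choice.

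TRINITY_DN12968_c0_g1_i1_3, of 863 nucleotides, varied less between libraries. It had 61.5, 50.1 and 45.6 CPM in fasted 28-day livers, 54.1, 59.7 and 47.5 CPM in fasted 8-day livers, 9.44, 7.25 and 7.89 CPM in fed 28-day livers, and 18.3, 22.0 and 18.2 CPM in fed 8-day livers. The 6 fasted libraries formed one range, above the fed 8-day libraries, which in turn lay above the fed 28-day ones. Its log2 fold change at 8 days was 1.48 ± 0.19 (SE, edgeR adjusted p = 0.000215, higher in 3 of 3 libraries). The lowest other mean was 2.38 times its fed 28-day mean by column totals and 1.98 times on the TMM scale, under the limit of the rule.

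TRINITY_DN16747_c0_g2_i10_3, of 3130 nucleotides, fell most at 8 days. It had 16.7, 31.4 and 56.4 CPM in fasted 28-day livers, 19.2, 19.9 and 21.3 CPM in fasted 8-day livers, 12.4, 2.60 and 5.06 CPM in fed 28-day livers, and 321.2, 256.5 and 77.8 CPM in fed 8-day livers. The fed 8-day libraries were high but spread widely, and the margin between the highest fed 28-day and the lowest other library was small. At 8 days the log2 fold change was -3.40 ± 0.67 (SE, edgeR adjusted p = 0.00346, lower in 3 of 3 libraries). Its mean in fed 28-day livers was 0.0306 times that in fed 8-day livers, while fasted 28-day livers had 5.21 times the fed 28-day mean.

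TRINITY_DN14566_c1_g1_i22_4, of 4287 nucleotides, was also the transcript nearest to the level limit. It had 8.73, 31.3 and 12.5 CPM in fasted 28-day livers, 6.73, 17.1 and 6.32 CPM in fasted 8-day livers, 0.313, 3.52 and 5.68 CPM in fed 28-day livers, and 58.4, 63.5 and 46.8 CPM in fed 8-day livers. Replicate 2 was again the highest of both fasted groups. Its log2 fold change at 8 days was -2.53 ± 0.68 (SE, edgeR adjusted p = 0.0196, lower in 3 of 3 libraries), and it did not pass without fasted 8-day replicate 1 (adjusted p = 0.0671) or replicate 3 (adjusted p = 0.0687).

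The deepest and the most abundant transcripts did not pass at 8 days. The log2 fold change of TRINITY_DN14431_c0_g1_i3_4 was -0.47 ± 0.38 (SE, edgeR adjusted p = 0.414), though each fasted 8-day library lay below each fed 8-day library. That of TRINITY_DN14708_c1_g1_i13_4 was -1.04 ± 0.48 (SE, edgeR adjusted p = 0.143), with 3 of 3 fasted libraries lower. The most abundant transcript had 0.67 ± 0.26 (SE, edgeR adjusted p = 0.0835), with overlapping libraries.

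Fish fasted for 28 and for 8 days were compared in the same fit, since the rule did not set these groups against each other. Both had to lie above the fed 28-day group, so their values did enter the choice. No transcript of the 155 passed edgeR's test, and the lowest adjusted p was 1. None of the 32212 features passed it either (0% called). At an unadjusted p under 0.05 there were 2 of the 155 (1.29%), against 2.78% of all features tested. DESeq2 and limma also called none of the 155. Over all features tested, DESeq2 called 9 higher and 22 lower (0.096%), and limma called none. The median log2 fold change, fasted 28 over fasted 8 days, was -0.03, with quartiles at -0.16 and 0.13, beside 0.01 for all features tested. The libraries of the 2 fasted groups overlapped for 151 of the 155. Of the others, 1 was higher after 28 days and 3 were lower (0.645% and 1.94%, against 4.31% and 2.33% of all features tested). These shares too are not matched for level. The spread within both fasted groups was wide, so a small difference may have been missed.

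The 3 groups outside fed 28 days were often level with each other. Their means lay within 1.5-fold for 86 transcripts (55.5%, against 40.1% of the features that met the level condition) and within 2-fold for 128 (82.6%, against 63.6%). The widest range among the 3 means was 10.85-fold. All 3 means entered the rule, and each had to lie well above the fed 28-day mean. The shares among the chosen transcripts therefore depend in part on the choice. Their difference from the features that met the level condition was not tested. Fasted 28-day fish had the highest mean for 55 transcripts, fasted 8-day fish for 24 and fed 8-day fish for 76. These are 35.5%, 15.5% and 49.0%, beside 31.3%, 19.1% and 49.6% of the features that met the level condition.

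In the median, the transcripts were shorter than the features that met the level condition and had lower levels. Their median length was 1184 nucleotides (quartiles 760 and 2164.5, range 323 to 5133), against 1788 nucleotides for the features that met the level condition and 598 nucleotides for all features. Of the 155, 57 were under 1000 nucleotides (36.8%, against 21.3% of the features that met the level condition). In FPKM their means over the 9 other libraries ran from 2.91 to 1986 with a median of 19.1.

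Each identifier ends in a number from 1 to 4, and no feature shared assembly locus and last number with another. Isoforms of a locus were therefore not compared, on the premise, stated by no label, that the last number sets loci apart. The number 3 ended 68 of the 155 identifiers (43.9%, against 32.7% of the features that met the level condition), the number 1 ended 27, the number 2 ended 31 and the number 4 ended 29. Per 100 features that met the level condition, 5.34 with the number 3 were chosen, against 3.04, 3.79 and 3.16 with the numbers 1, 2 and 4. Some features of 30 counts or more had over 60% of their summed CPM in a single library. Among these, number 4 ended all 19 of fed 28-day replicate 1. Number 2 ended all 5 of replicate 2 and number 1 all 21 of replicate 3. Number 3 ended none of the features so placed in fed 28-day libraries, but 18 of 20 for fasted 28-day replicate 3, 14 of 15 for fasted 8-day replicate 2 and 47 of 52 for fed 8-day replicate 2. The labels do not state what the last number stands for. It may mark separate assemblies of part of the libraries, in which case number 3 would be one without fed 28-day reads. Neither this nor its part in the choice of transcripts was tested.

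**Figure D5:**
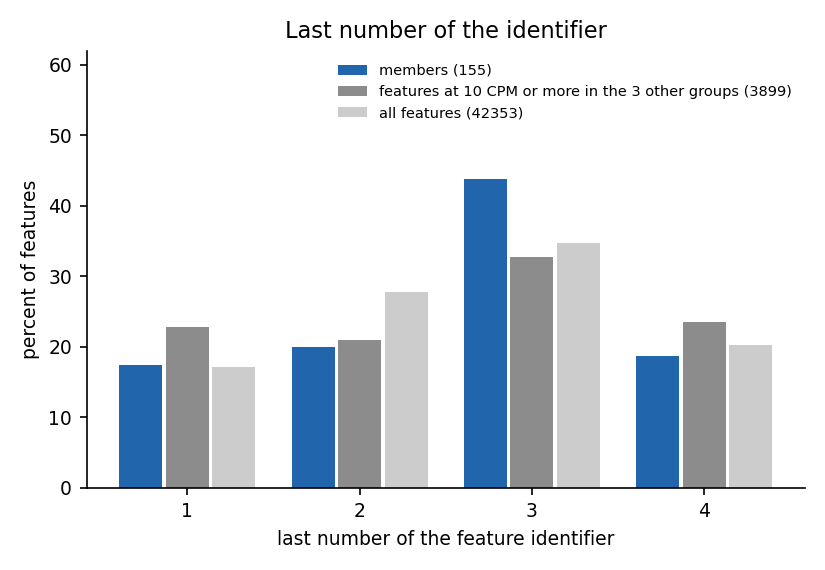
Share of features by the last number of the identifier, as bars in percent, for the 155 transcripts, the 3899 features at 10 CPM or more in the 3 other groups, and all 42353 features. The number 3 ends 43.9% of the 155, against 32.7% and 34.7% of the 2 larger sets.

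In identifiers of this form the first number usually names a cluster of assembled reads. Features were taken here as one cluster where first and last number were both the same, on the premise, stated by no label, that the last number marks an assembly. By this reading 3 clusters held 2 of the transcripts each. In one, a feature of 3125 nucleotides averaged 405.1 ± 90.3, 303.6 ± 119.2, 39.1 ± 4.25 and 440.7 ± 3.76 CPM in fasted 28-day, fasted 8-day, fed 28-day and fed 8-day livers. A feature of 351 nucleotides from it averaged 22.1 ± 9.63, 16.7 ± 5.44, 3.79 ± 1.49 and 25.6 ± 3.20 CPM in the same order (SD, n = 3 each). These 2 followed the same order of groups, at CPM levels far apart, which do not allow for length. Per length they lay closer. Their means were 127.7 and 62.2 FPKM in fasted 28-day and 95.8 and 46.9 FPKM in fasted 8-day livers. In fed 28-day livers they were 12.4 and 10.7 FPKM, and in fed 8-day livers 146.0 and 75.5 FPKM. The cluster of TRINITY_DN16783_c0_g1_i2_3 held a feature of 1514 nucleotides with 24.8 ± 8.94, 23.7 ± 16.6, 7.73 ± 0.505 and 18.1 ± 1.11 CPM in the same order. That one had a log2 fold change of 0.32 at 8 days and did not pass (edgeR adjusted p = 0.532). In the third cluster, features of 1200 and 675 nucleotides averaged 20.4 ± 4.17 and 21.6 ± 3.97 CPM in fasted 28-day livers, against 7.38 ± 3.17 and 8.27 ± 1.08 CPM in fed 28-day livers.

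Other features of these clusters were low in fed 28-day fish at a share near that of all features. For 33 of the 155 transcripts the cluster held further features of at least 1 CPM, 97 in all. Of these, 28 (28.9%) were in fed 28-day livers at most at 0.5 times the mean of the 3 other group means, against 26.3% of all features of at least 1 CPM, and 22 were higher there than that mean. Only 28 of the 97 met the level condition of 10 CPM.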

How the data were processed

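The 12 stranded mRNA libraries were made from total liver RNA (integrity number at least 7) and read as pairs, per the labels' protocols. The submitters' processing notes name Trimmomatic and Bowtie2; assembler, abundance estimator and annotation were not given in the sources used here. Both tables, which the authors deposited, hold 42353 features: one gives estimated counts that are not whole, the other FPKM values. Reads shared by near-identical features may have been split between them, so levels of such features are uncertain. Lengths were taken from the ratio of estimated counts to FPKM. The library totals behind FPKM were fitted so that lengths of abundant features came out whole, at 95.8% to 105.1% of the column totals. With them all lengths were whole within 0.1 nucleotides. Columns were matched to samples by group code, as the series' design text gives it, and replicate.

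CPM is the estimated count over the column total. The transcripts, their rule and the lists were chosen with earlier results of these data known. For tests, estimated counts were rounded, where the design had assumed counts, and filtered with filterByExpr by group (32212 features kept). All 12 libraries were fitted as 4 groups with edgeR 4.0.16 (R 4.3.3; TMM, robust quasi-likelihood, common dispersion 0.293), with Benjamini-Hochberg adjustment over all features tested. Standard errors were derived from fold change and F statistic and are approximate. The test was checked on simulated counts. Identifiers named are the 2 risen and 2 fallen transcripts with the largest fold change at 8 days among the 39 that passed without overlap of the 6 libraries, the 2 with the deepest fed 28-day gap, and, by length, the most abundant. Alternatives were other scalings, filters and thresholds, the replicate number as a block, DESeq2 1.42.0, limma 3.58.1 on log2(FPKM + 1) and log2(FPKM + 0.1), and leaving out libraries.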

Additional observations from a re-analysis of the deposited data

Results flagged for a closer look

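The 29 transcripts that were lower in fasted than in fed livers at 8 days moved against the direction that the rule sets at 28 days, where fasted livers are higher. The difference between the days was not tested, since the rule used the 28-day values. The rule also set the fed 28-day level below the fed 8-day level, so this part of the pattern follows from the choice. At 28 days the library medians of these transcripts were 19.4 to 22.0 CPM in fasted and 5.97 to 7.32 CPM in fed livers. At 8 days they were 15.5 to 20.1 CPM in fasted and 53.9 to 58.0 CPM in fed livers. The 29 made up 18.7% of the chosen transcripts. By the same edgeR test, 12.1% of all features tested and 25.3% of those that met the level condition were lower. The share was thus below that of features meeting the level condition, and this difference was not tested.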

How the results depend on the processing

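The rule chose 155 features as given, 66 with TMM-scaled and 68 with RLE-scaled CPM, 334 with a level of 5 CPM and 62 with 20 CPM, and 42 with a ratio limit of 1/3 and 372 with one of 2/3. With FPKM for ratio and order it chose 167 (152 shared), without the order condition 191, leaving out 1 library 113 to 217, and without the 3 fasted libraries apart on the third component, an alternative added after seeing the data, 137 (101 shared). At 8 days the count of risen transcripts was 4 and 3 with limma at pseudocounts of 1 and 0.1, 4 at an adjusted p under 0.01 (19 fell) and 3 with an absolute log2 fold change of at least 1 (18 fell). It was 6 to 9 without 1 library, while 22 to 28 fell. DESeq2 gave 13 risen and 35 fallen. Over all features tested, 13.3% rose and 12.1% fell as fitted. These shares were 16.5% and 15.1% with DESeq2, 10.4% and 15.2% with limma at a pseudocount of 1, and 11.2% and 13.8% at 0.1. At an adjusted p under 0.01 they were 7.38% and 7.23%, and with the fold change limit 11.05% and 9.86%. Without 1 library 9.27% to 10.85% rose and 8.65% to 9.62% fell. Stricter thresholds lower a count by construction; the cause of the other moves was not tested. With the replicate number as a block 12 rose and 28 fell, beside 12.2% and 11.5% of all features tested. Same-numbered 8-day libraries were not related (correlation -0.000891 to 0.0461), and the labels do not say that numbers pair them. For fasted 28 against 8 days that correlation was -0.16 to 0.144. No alternative called any of the 155 between the fasted groups. Over all features tested, 0.096% passed with DESeq2, and 1 feature passed with edgeR without fasted 28-day replicate 2. The median log2 fold change at 8 days ran from -0.22 to -0.02. TRINITY_DN14708_c1_g1_i13_4 passed with only the 6 libraries compared (-1.04, edgeR adjusted p = 0.00723; range over its alternatives 0.00723 to 0.279). Spreads given are SDs over libraries or approximate SEs from edgeR's fit, and no interval from depth alone is given.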
